A study of Mus musculus with 13 samples.

Results

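Messenger RNA of the proteasome was measured in regulatory T (Treg) cells labelled as lacking the Hippo pathway kinases MST2 and MST1, encoded by Stk3 and Stk4. The genes were chosen by symbol: Psma, Psmb, Psmc, Psmd, Psme, Psmf or Psmg followed by a number, without pseudogenes. This gave 50 of the 26720 genes in the count table. Of these, 48 encode subunits, activators, an inhibitor or assembly factors. The other two, Psmc3ip and Psme3ip1, match the symbol rule but encode proteins named for binding a subunit or an activator. All 50 passed the filter on low counts and were tested.

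The cells were CD4+YFP+ splenic cells from mice of about 4 to 5 weeks. All mice carried the Foxp3YFPCre allele, in which YFP marks cells that express Foxp3 and Cre is driven by Foxp3. The control group (7 libraries) is labelled Foxp3YFPCre, with no zygosity given. The deleted group (6 libraries) is labelled Foxp3YFPCre/+Stk3∆/∆Stk4∆/∆, so Cre dose and the deletion cannot be told apart. In the sample descriptions the deleted libraries are named Het and the control libraries WT. The labels do not say which mouse gave which library, so a p-value here rests on the spread between libraries, which may be technical.

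The proteasome degrades proteins that carry ubiquitin. Its 20S core is a barrel of alpha rings, which form the gate, around beta rings, which hold the proteolytic sites. The 19S cap recognises, unfolds and feeds in the substrate. In lymphocytes and under interferon gamma, the standard catalytic subunits Psmb5, Psmb6 and Psmb7 can be replaced by Psmb8, Psmb9 and Psmb10, which gives the immunoproteasome, a source of peptides for MHC class I.

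Levels are counts per 1e6 counts (CPM) with TMM scaling of the libraries. Treg markers were present in every library, with 4 of 6 lower in the deleted group and Foxp3 not called (log2 fold change -0.30, adjusted p = 0.463). Over all genes tested, 8.52% were called lower. Of the 5 Treg markers with at least 50 mean CPM 4 fell, against 23.8% of all genes of that level. With the share of olfactory and vomeronasal receptor counts as a covariate, 0 of the 6 were called by edgeR. Stk3 was at 33.6 ± 6.32 CPM (SD, n = 6) in deleted and 33.9 ± 7.51 CPM (SD, n = 7) in control libraries, and Stk4 at 171 ± 120 against 213 ± 55.9 CPM. Neither passed the test. For Stk4, deleted replicate 1 was at 394 CPM, above the highest control library (291 CPM), while deleted replicates 4, 5 and 7 lay below the lowest (136 CPM). Its log2 fold change was -0.31, and -0.75 without deleted replicate 1 (adjusted p = 0.0789). It was -0.14 without deleted replicate 5 or 7. Since reads were summed along each gene, these values do not check the deletion of part of it. Summed markers of myeloid, CD8 T, NK and erythroid cells overlapped between the groups, with 0 of their 17 tested genes called by edgeR (1 was higher at an unadjusted p under 0.05). DESeq2, which tested 18, and limma-voom each called 1 higher, against 710 of 26720 and 1174 of 24068 genes. In limma-voom 4 of the 17 were higher at an unadjusted p under 0.05, of which 3 were NK markers. Control replicate 2 often lay among the deleted libraries, and control replicates 4 and 5 were often the highest.

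Most proteasome genes had lower values in the deleted libraries. In the test over all genes, 24 of the 50 fell and 1 rose, against 8.52% of all 24068 genes tested that fell and 1.66% that rose (edgeR quasi-likelihood test, Benjamini-Hochberg adjusted p under 0.05). Calls were more frequent at higher levels: 23.8% of all genes of at least 50 mean CPM fell, and 39 of the 50 are of that level. The log2 fold change was negative for 47 of the 50, with a median of -0.84 against 0.06 for all genes tested. The 20S core had the larger share of calls: 14 of its 17 genes fell, against 7 of 20 cap genes, a difference that was not tested. These calls moved with the background of the libraries. With the share of olfactory and vomeronasal receptor counts as a covariate, 0 of the 50 were called and their median was -0.049, as detailed further on.

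To show the start regions of the immunoproteasome genes beside that of a standard catalytic gene, the 250 bases before the annotated start are printed for 4 genes (RefSeq, GRCm38.p6), 5′ to 3′ on the gene's strand. They lie at chr17:34187331-34187580 (minus strand) for Psmb9, chr17:34197945-34198194 (plus strand) for Psmb8, chr8:105938393-105938642 (minus strand) for Psmb10 and chr14:54617996-54618245 (minus strand) for Psmb5. The window of Psmb9 reaches into the first bases of Tap1, which is read the other way. Capitals mark matches to the searched motifs.
Psmb9: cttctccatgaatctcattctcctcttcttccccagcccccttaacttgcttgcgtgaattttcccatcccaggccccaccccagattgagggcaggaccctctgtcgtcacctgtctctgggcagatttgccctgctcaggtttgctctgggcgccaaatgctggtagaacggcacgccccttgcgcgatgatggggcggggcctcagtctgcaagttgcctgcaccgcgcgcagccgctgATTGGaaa
Psmb8: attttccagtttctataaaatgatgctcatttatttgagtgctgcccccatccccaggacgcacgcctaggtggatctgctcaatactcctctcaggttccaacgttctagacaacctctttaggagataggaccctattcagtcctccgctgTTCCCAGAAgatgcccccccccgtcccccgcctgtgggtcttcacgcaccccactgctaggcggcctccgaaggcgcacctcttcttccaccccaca
Psmb10: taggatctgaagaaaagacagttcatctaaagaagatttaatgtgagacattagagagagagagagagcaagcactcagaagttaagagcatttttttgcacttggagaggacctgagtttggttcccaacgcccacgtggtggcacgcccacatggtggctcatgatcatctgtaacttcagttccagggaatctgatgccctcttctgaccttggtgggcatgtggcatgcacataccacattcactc
Psmb5: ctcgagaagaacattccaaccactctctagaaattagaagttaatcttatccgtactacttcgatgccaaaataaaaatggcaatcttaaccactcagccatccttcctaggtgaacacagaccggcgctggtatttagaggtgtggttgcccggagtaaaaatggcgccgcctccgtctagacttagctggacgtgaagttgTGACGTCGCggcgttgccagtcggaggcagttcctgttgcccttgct

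The capitals are an NF-Y box in Psmb9, a match to the interferon gamma activated site in Psmb8, and a match to the antioxidant response element in Psmb5. The window of Psmb10 held none of the searched letters. Windows were found for 42 of the 50 genes and searched on both strands. The NF-Y box (CCAAT) was in 15 of the 42 (35.7%), against 34.5% of 27025 gene windows. By role it was in 5 of 7 alpha ring genes, 1 of 4 standard beta ring genes and 0 of 3 assembly factor genes with a window. The antioxidant response element (TGACNNNGC) was in 5 of the 42, Psmb5, Psmb6, Psmc6, Psmd9 and Psmd12, or 11.9% against 10.1%. The interferon gamma activated site (TTCNNNGAA) was in Psmb8 and Psmg1, or 4.76% against 7.18%. The interferon-stimulated response element was in Psmb3, Psmd4 and Psmd9, or 7.14% against 3.04%. The kappaB motif was in 5 of the 42, or 11.9% against 7.01%. The Psmb3 window holds both the NF-Y box and the interferon-stimulated response element. A match is a run of letters, not evidence of binding.

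**Figure D1:**
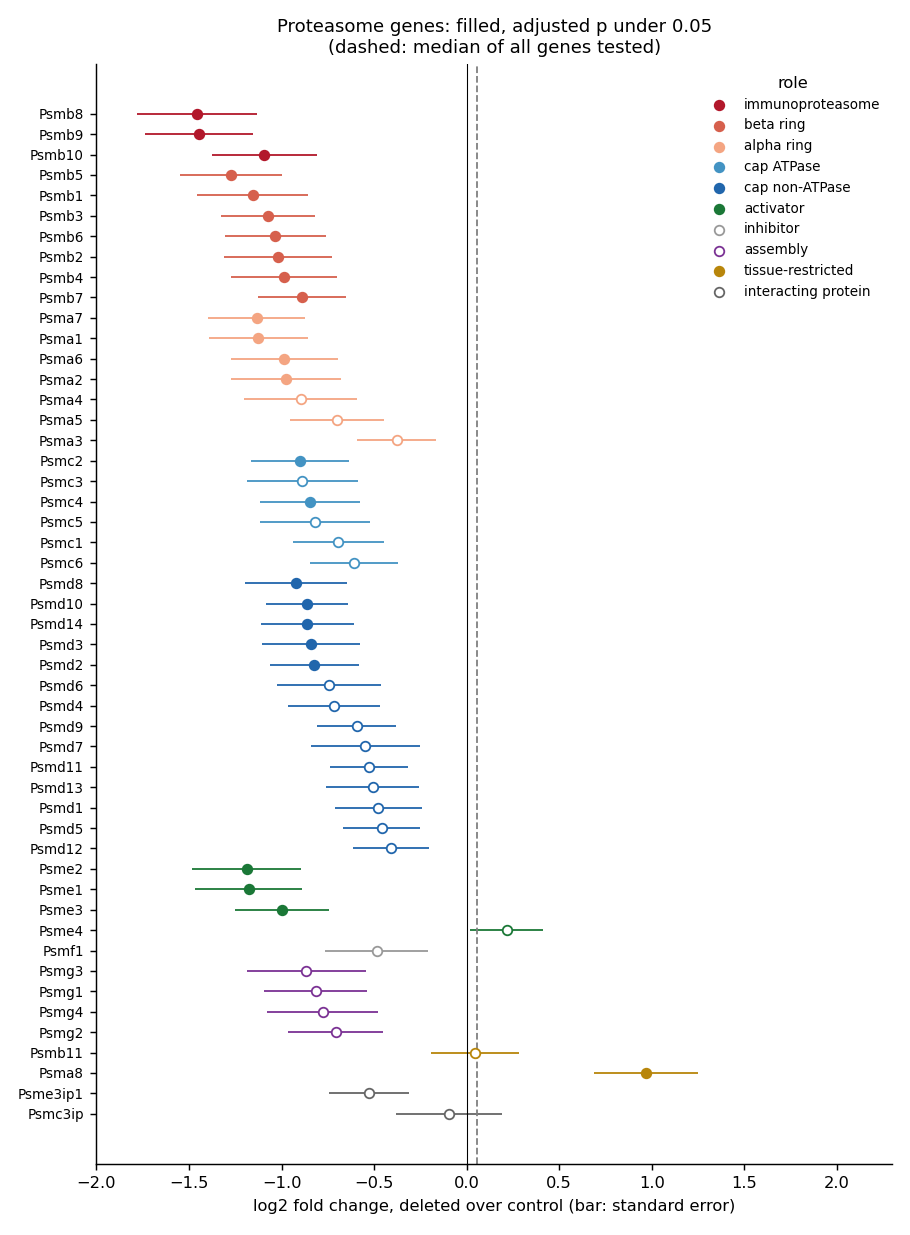
Log2 fold change of deleted over control (x axis) for each of the 50 genes, grouped and coloured by role, with standard errors as bars. Filled points passed the test, and the dashed line is the median of all genes tested (0.06). All beta ring and immunoproteasome genes lie at -0.89 or further left, while Psme4, Psmb11 and Psma8 lie right of 0.

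All 3 immunoproteasome genes fell. Psmb8, which takes the place of the chymotrypsin-like subunit, was at 186 to 398 CPM (median 312) in the deleted and at 368 to 1504 CPM (median 736) in the control libraries. The change was -1.46 on the log2 scale (SE 0.32, adjusted p = 0.00732). In the deleted group, replicates 1 and 4 reached the range of the controls, whose lowest library was replicate 2, and 4 of 6 deleted libraries lay below it. Psmb9, which takes the place of the caspase-like subunit, was at 54.8 to 142 CPM (median 104) against 136 to 511 CPM (median 245). It fell by 1.45 (SE 0.29, adjusted p = 0.00425), the smallest p of the family. Only deleted replicate 4 lay above the lowest control library. Psmb10, which takes the place of the trypsin-like subunit, was at 53.9 to 182 CPM (median 85.2) against 103 to 308 CPM (median 215) and fell by 1.09 (SE 0.28, adjusted p = 0.0172). Deleted replicate 1, at 182 CPM, stood apart from the other 5, which lay below every control library. Psmb8 (chromosome 17, 34198195 to 34201454) and Psmb9 (34182030 to 34187330) lie close together in the MHC region, whereas Psmb10 lies on chromosome 8 (105935728 to 105938392).

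The standard catalytic genes fell as well. Psmb5, the chymotrypsin-like subunit, was at 26.3 to 41.0 CPM (median 35.6) in the deleted and at 33.7 to 163 CPM (median 83.4) in the control libraries. Its log2 fold change was -1.27 (SE 0.28, adjusted p = 0.00684). The deleted libraries were close together, and 6 of 7 control libraries lay above all of them. Psmb6, the caspase-like subunit, was at 91.3 to 158 CPM (median 111) against 122 to 445 CPM (median 188) and fell by 1.03 (SE 0.27, adjusted p = 0.019). Psmb7, the trypsin-like subunit, was at 26.8 to 38.9 CPM (median 31.3) against 33.6 to 109 CPM (median 54.1) and fell by 0.89 (SE 0.24, adjusted p = 0.0198). For both, 4 of 6 deleted libraries lay below the lowest control library, which was replicate 2.

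**Figure D2:**
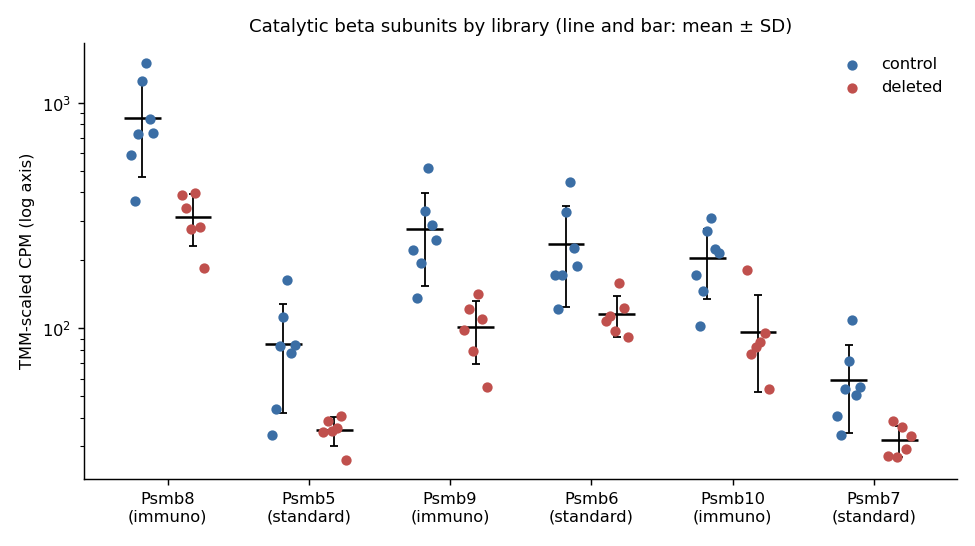
TMM-scaled CPM on a log axis for the 3 immunoproteasome genes and the standard gene that each replaces, 1 point a library, with mean and SD. Control libraries spread further than deleted ones for most of these genes, and deleted replicate 1 is the high Psmb10 point at 182 CPM.

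Whether the immunoproteasome genes differed from their standard counterparts was read from ratios of counts within a library, which do not depend on how libraries are scaled. A ratio also holds the lengths of both genes, so only its difference between libraries is read. The log2 ratio of Psmb9 to Psmb6 was -0.74 to 0.09 (median -0.16) in the deleted and 0.02 to 0.38 (median 0.20) in the control libraries. The difference was -0.47 (SE 0.12), with a two-sided exact permutation p = 0.00233 and an adjusted p of 0.00699 over the 3 ratios. In 5 of 6 deleted libraries the ratio was below the lowest control library, and deleted replicate 2 was the exception. Among the 5 deleted and 4 control libraries of similar receptor share the difference was -0.40 (two-sided exact permutation p = 0.0159). The log2 ratio of Psmb8 to Psmb5 was 2.78 to 3.48 (median 3.05) against 3.07 to 4.12 (median 3.20). Its difference of -0.26 (SE 0.19) did not pass the test (two-sided exact permutation p = 0.205, adjusted p = 0.308). The log2 ratio of Psmb10 to Psmb7 was 0.69 to 2.73 (median 1.44) against 1.44 to 2.14 (median 1.91). Its difference of -0.31 (SE 0.31) did not pass either (two-sided exact permutation p = 0.322, also after adjustment). Deleted replicate 1 had the highest value of all libraries. Without it the difference was -0.55 (two-sided exact permutation p = 0.0303, not adjusted over the ratios).

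Taken as a share of all 20S core counts, the immunoproteasome genes made up 26.2 to 35.4% (median 30.7%) in the deleted and 34.7 to 40.2% (median 37.3%) in the control libraries. Deleted replicate 1 lay above the lowest control library and the other 5 lay below it. This share of core counts has no test, and the part of the receptor share in it was not tested. Markers of B cells, which also use the immunoproteasome, went both ways. All 8 had counts. Ighm and Cd79b were lower, Ms4a1 was higher and 5 were not called, where 8.52% of all genes were lower and 1.66% higher. The median log2 fold change of the 8 was 0.28. Their summed level was 158 to 234 CPM in the deleted and 382 to 1106 CPM in the control libraries. Most of the gap in this sum came from Ighm, which alone was at 48.5 to 115 CPM against 263 to 991 CPM. The part of B cells in the immunoproteasome values was not tested. In RNA of bulk samples, fewer cells of a type and less RNA per cell cannot be told apart.

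**Figure D3:**
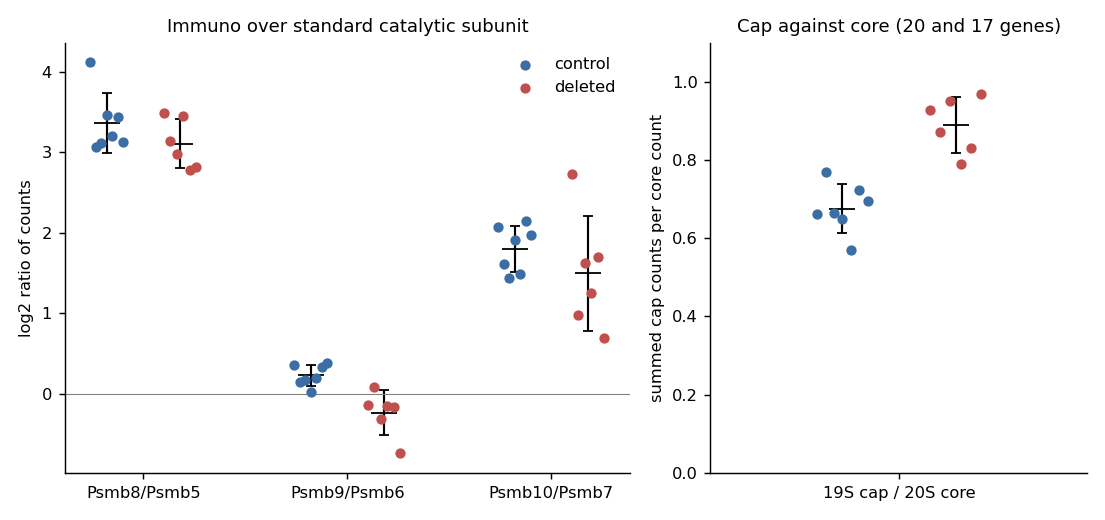
Left, log2 ratio of counts of each immunoproteasome gene to the gene it replaces. Right, summed counts of the 20 cap genes per count of the 17 core genes. Points are libraries, with mean and SD. The Psmb9 to Psmb6 ratio is lower in the deleted libraries (difference -0.47), and the cap to core ratio is higher in all 6 of them than in any control library.

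All 7 standard beta ring genes fell, with log2 fold changes between -1.27 and -0.89. Besides the catalytic genes these are Psmb1, Psmb2, Psmb3 and Psmb4, which encode beta subunits without a proteolytic site. Psmb3 was at 35.1 to 76.6 CPM (median 65.2) in the deleted and at 66.2 to 227 CPM (median 130) in the control libraries. On the log2 scale it fell by 1.07 (SE 0.25, adjusted p = 0.0106). Psmb1 was at 73.4 to 183 CPM (median 137) against 151 to 555 CPM (median 269). On the log2 scale it fell by 1.16 (SE 0.30, adjusted p = 0.0169). In both genes control replicate 2 was the lowest control library and lay inside the deleted range.

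In the alpha ring, 4 of 7 standard genes fell, Psma1, Psma2, Psma6 and Psma7. Over all genes tested 8.52% fell, and 23.8% of those of at least 50 mean CPM. Psma7 was at 105 to 185 CPM (median 131) in the deleted and at 189 to 526 CPM (median 265) in the control libraries. It fell by 1.13 (SE 0.26, adjusted p = 0.00958). It was the one gene of the 50 with every deleted library below every control library, a separation seen in 1.44% of all genes tested. Psma1 was at 52.2 to 102 CPM (median 71.1) against 72.4 to 264 CPM (median 130) and fell by 1.13 (SE 0.27, adjusted p = 0.0106). Psma3 had the largest p in the ring. It was at 54.5 to 84.9 CPM (median 64.7) against 55.9 to 142 CPM (median 89.0). Its fitted change was -0.38 (SE 0.21, adjusted p = 0.271). Its groups overlapped widely. Psma4 (-0.90) and Psma5 (-0.70) did not pass the test either.

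Fewer genes of the 19S cap were called. Of 6 ATPase genes, whose products form the ring that unfolds the substrate, Psmc2 and Psmc4 fell and 4 were not called. The share that fell was 8.52% over all genes and 23.8% over genes of at least 50 mean CPM. Psmc2 was at 42.3 to 103 CPM (median 58.2) in the deleted and at 80.9 to 208 CPM (median 101) in the control libraries. It fell by 0.90 (SE 0.26, adjusted p = 0.0318). Psmc4 was at 41.1 to 105 CPM (median 71.0) against 65.5 to 201 CPM (median 142) and changed by -0.85 (SE 0.27, adjusted p = 0.0477). Deleted replicates 3 and 4 for Psmc2, and 1, 4 and 5 for Psmc4, lay inside the control range. Both calls depended on the fit. Psmc4 lost its call in 9 of the 13 fits without 1 library, with DESeq2 size factors (adjusted p = 0.0579) and with upper quartile scaling (adjusted p = 0.0829). Psmc2 lost its call in 6 of the 13. Psmc6 was at 48.2 to 68.5 CPM (median 55.8) against 49.8 to 153 CPM (median 76.6). The log2 fold change was -0.61 (SE 0.24, adjusted p = 0.105).

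Of 14 non-ATPase cap genes, 5 fell, Psmd2, Psmd3, Psmd8, Psmd10 and Psmd14, against 8.52% of all genes and 23.8% of those of at least 50 mean CPM. All 14 log2 fold changes were negative, from -0.92 to -0.41. Psmd10, which encodes gankyrin, an assembly chaperone of the cap base, had the smallest p. It was at 23.6 to 44.2 CPM (median 35.0) in the deleted and at 36.2 to 88.1 CPM (median 59.9) in the control libraries and fell by 0.86 (SE 0.22, adjusted p = 0.0169). Psmd14, the deubiquitinase of the lid, was at 53.1 to 104 CPM (median 74.4) against 77.4 to 207 CPM (median 136) and fell by 0.86 (SE 0.25, adjusted p = 0.0303), a call lost in 7 of the 13 fits without 1 library. Psmd7, its partner in the lid, had the largest p. It was at 32.5 to 173 CPM (median 69.0) against 73.8 to 165 CPM (median 119). Its fitted change was -0.55 (SE 0.29, adjusted p = 0.242). Deleted replicate 1 was the highest of all 13 libraries for Psmd7.

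The cap and the core could be set against each other without library scaling. Summed counts of the 20 cap genes were 0.789 to 0.970 per count of the 17 core genes (median 0.899) in the deleted libraries. In the control libraries they were 0.570 to 0.769 (median 0.664). The groups did not overlap. Control replicate 2 had the highest and control replicate 5 the lowest ratio among the controls. The ratio was chosen after values were seen and is a score over the chosen genes, so it has no test. The receptor share moved in the same direction: it was 0.761 to 1.89% in the deleted and 0.371 to 1.07% in the control libraries, and its part in the ratio was not tested.

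The activators differed among themselves. Psme1 and Psme2 encode the alpha and beta subunits of PA28, the interferon-inducible ring that opens the core gate. Psme1 was at 116 to 264 CPM (median 168) in the deleted and at 187 to 648 CPM (median 422) in the control libraries and fell by 1.18 (SE 0.29, adjusted p = 0.0133). Psme2 was at 26.5 to 84.2 CPM (median 55.0) against 72.6 to 263 CPM (median 118) and fell by 1.19 (SE 0.29, adjusted p = 0.0136). Both had 4 of 6 deleted libraries below the lowest control library. Counts of Psme1 per count of Psme2 had medians of 3.22 and 3.29, with overlapping ranges. The genes lie within a short stretch of chromosome 14 (55578494 to 55581527 and 55587440 to 55591101). Psme3, the nuclear PA28 gamma subunit, was at 36.4 to 88.3 CPM (median 59.6) against 78.7 to 192 CPM (median 131). It fell by 1.0 (SE 0.25, adjusted p = 0.0154).

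Psme4, which encodes the nuclear activator PA200, did not follow. It was at 110 to 168 CPM (median 125) in the deleted and at 86.7 to 148 CPM (median 101) in the control libraries. The log2 fold change was 0.22 (SE 0.20, adjusted p = 0.515). Every deleted library lay above the control median, and none above the highest control library except replicate 7. Per count of the 20S core, Psme4 was at 0.0609 to 0.149 against 0.0194 to 0.0580, without overlap. Since 14 of the 17 core genes fell, a gene that did not fall is higher on this ratio, which has no test. Deleted replicate 7, with the largest receptor share (1.89%), had the highest ratio. The part of the receptor share in the ratio was not tested. With genes of at least 50 mean CPM scaled and tested alone, Psme4 rose by 0.61 (adjusted p = 0.0238). There 9.38% of 5204 genes rose. With the log2 receptor share as a covariate, Psme4 was at 0.17 (edgeR, adjusted p = 0.899). In libraries of similar receptor share it was at 0.092 (edgeR, adjusted p = 0.944).

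The core assembly factor genes Psmg1 to Psmg4 had 0 of 4 calls in edgeR and in DESeq2. In limma-voom 2 were called lower, against 2938 of all 24068 genes, and all 4 were lower at an unadjusted p under 0.05. Their log2 fold changes ran from -0.87 to -0.71, with adjusted p from 0.0624 to 0.098 in edgeR. Psmf1, which encodes the inhibitor PI31, was at -0.49 (SE 0.28, adjusted p = 0.274). Psme3ip1 was at -0.53 (adjusted p = 0.122) and Psmc3ip at -0.09 (adjusted p = 0.871).

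Of the tissue-restricted core genes, Psma8, the alpha subunit of the testis proteasome that takes the place of Psma7, was the one gene that rose. It was at 10.5 to 31.1 CPM (median 16.6) in the deleted and at 7.20 to 12.5 CPM (median 9.83) in the control libraries. Its fitted change was 0.97 (SE 0.28, adjusted p = 0.0299). Deleted replicate 5 lay inside the control range. Psmb11, the beta subunit of the thymus proteasome, was at 17.6 to 32.6 CPM (median 27.4) against 13.4 to 35.2 CPM (median 22.3). The log2 fold change was 0.05 (SE 0.24, adjusted p = 0.928). Both levels were low. Receptor genes of smell and pheromone sensing, used here as a measure of background, had a median of 6.09 mean CPM and a 95th percentile of 20.03. Psma8 averaged 13.8 CPM over all libraries, below that percentile, and Psmb11 averaged 25.5 CPM. The median log2 fold change of the receptor genes was 0.58. Psma8 had a value of 1.14 when the share of receptor counts was a covariate (SE 0.36, adjusted p = 0.246).

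Among 21 tested partners of the proteasome, 5 fell (23.8%), 0 rose and 16 were not called. The share over all genes was 8.52%. Of the 15 partners with at least 50 mean CPM 5 fell, against 23.8% of all genes of that level. None was higher at an unadjusted p under 0.05 in edgeR, nor after adjustment in DESeq2 or limma-voom. Sem1, a small subunit of the cap lid, was at 44.8 to 116 CPM in the deleted and at 90.4 to 385 CPM in the control libraries and fell by 1.24 (SE 0.29, adjusted p = 0.0109). Ubb, a polyubiquitin gene, fell by 1.30 (SE 0.36, adjusted p = 0.0228), a call lost in 4 of the 13 fits without 1 library. Pomp, which encodes the core maturation protein, also fell, and is named after its value was seen. With the log2 receptor share in the fit, 0 of the 21 were called by edgeR, and 3 had an unadjusted p under 0.05. The 3 smallest p among these partners went with positive log2 fold changes (0.47 to 0.75), and the list median was 0.13. Sem1 was at -0.26 (adjusted p = 0.862) and Ubb at -0.32 (adjusted p = 0.816). Of 10 tested genes for factors that transcribe proteasome genes, or that process those factors, 0 passed the edgeR test. At an unadjusted p under 0.05, 3 were lower. DESeq2 called 2 of 11 lower, against 2506 of all 26720 genes, and limma-voom 3 of 10, against 2938 of 24068. The 3 were Nfyc (-0.70, adjusted p = 0.052 in edgeR), Mafk (-0.90, adjusted p = 0.06) and Nfyb (-0.68, adjusted p = 0.0761), and limma-voom called all of them.

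Of 15 genes of interferon gamma signalling and of its MHC class I targets, 9 fell and 6 were not called, against 8.52% lower over all genes. Of the 13 with at least 50 mean CPM 8 fell, against 23.8% of all genes of that level. No gene rose in edgeR, DESeq2 or limma-voom, and 0 were higher at an unadjusted p under 0.05. Irf8, a transcription factor induced by interferon gamma, was at 16.5 to 23.9 CPM in the deleted and at 27.0 to 55.8 CPM in the control libraries. The groups did not overlap, a separation in this direction seen in 1.44% of all genes tested, and it fell by 1.13 (SE 0.21, adjusted p = 0.00286). Tapbp, which encodes tapasin of the peptide loading complex, fell by 1.33 (SE 0.31, adjusted p = 0.00944). With the receptor share in the fit 0 of the 15 were called by edgeR, and 4 had an unadjusted p under 0.05. The 4 smallest p in the list went with values of both signs, from -0.90 to 0.60. Irf8 was at -0.90 (adjusted p = 0.201) and Tapbp at -0.33 (adjusted p = 0.759).

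Proteasome genes are of middle to high level, and over all genes the median log2 fold change was more negative in each higher level class. Among genes with a log2 mean CPM of 6 to 7 the median log2 fold change of 2559 genes was -0.35, with 20.9% called lower. The 24 proteasome genes there had a median of -0.78, and 10 were called lower. Between 7 and 8 the medians were -0.61 for 786 genes, of which 33.5% were called lower, and -1.02 for 11 proteasome genes, of which 9 were. Between 5 and 6 they were -0.17 for 4806 genes, with 14.6% called lower, and -0.76 for 8 proteasome genes, with 3 called lower. In the fit over all genes, 23.8% of the 5204 genes of at least 50 mean CPM fell.

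The level of the family moved with the library background. Its 48 proteasome genes took 0.360 to 0.486% of all counts in the deleted and 0.423 to 0.786% in the control libraries. Both shares are taken of the same totals, which were 2671660 to 4569655 counts in the deleted and 3705511 to 8323919 in the control libraries. Control replicates 4 and 5, with receptor shares of 0.472% and 0.371%, had the highest proteasome shares, 0.738% and 0.786%. Control replicate 2, with the largest receptor share among controls (1.07%), had the lowest proteasome share, 0.423%. Deleted replicate 7, with the largest receptor share of all (1.89%), had the lowest of all, 0.360%. Deleted replicate 1 was different: its receptor share, 0.761%, was like that of control replicate 3, but its proteasome share was 0.395% against 0.548%.

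**Figure D4:**
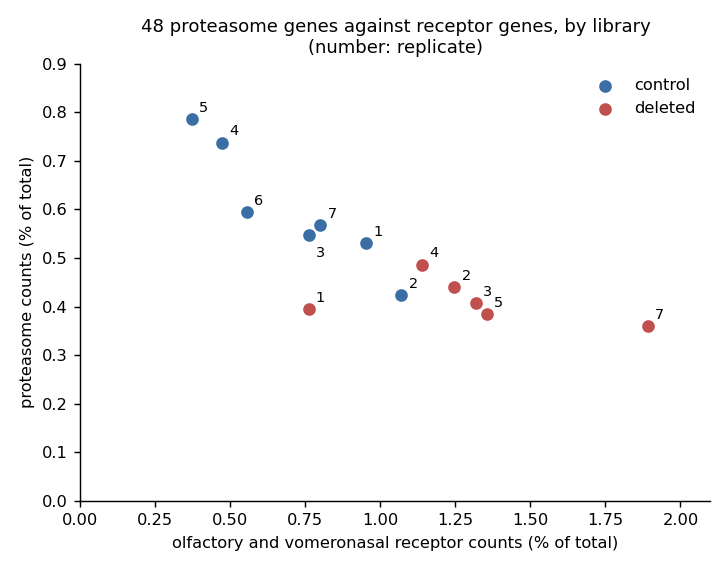
Percent of all counts on the 48 proteasome genes (y axis) against percent on olfactory and vomeronasal receptor genes (x axis), 1 point a library, numbered by replicate. Control libraries run from upper left to the middle, and the deleted libraries lie at 0.360 to 0.486% with mostly larger receptor shares.

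The calls depended on how this background was handled. With the log2 receptor share as a covariate, 0 of the 50 genes were called lower by edgeR (0.233% of all genes were, with 0.224% higher). Of the 50, 1 was lower at an unadjusted p under 0.05. That count leaves out positive values, among them Psma8 at 1.14 (edgeR, adjusted p = 0.246). The median of the 50 was then -0.049, and 28 of 50 values were negative. The sign turned for 21 of the 50, among them Psma6, Psmb4, Psmc4 and Psmd8, which were called lower with genotype alone. Psmb9 was at -0.55 (adjusted p = 0.516), Psmb8 at -0.43 (adjusted p = 0.598) and Psma7 at -0.36 (adjusted p = 0.664). Since the share was larger in most deleted libraries, it and genotype cannot be fully told apart in this fit. Where the receptor share was 0.7 to 1.4% (5 deleted, 4 control libraries), edgeR called 0 of the 50 (0.418% of all genes were called lower and 0.157% higher, and 14 of the 50 were lower at an unadjusted p under 0.05). There 46 of 50 values were negative, with a median of -0.32 against 0.00 for all genes. Psmb9 was at -0.85 (adjusted p = 0.132), Psmb8 at -0.84 (adjusted p = 0.216) and Psmb10 at -0.60 (adjusted p = 0.459). Of the cap genes, 19 of 20 were negative there, with a median of -0.27 against -0.53 for the 17 core genes.

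Scaling by genes of at least 50 mean CPM moved the median of all genes up by 0.34. The proteasome median was then -0.41, and 10 of the 50 fell, against 2.9% of all genes, and 1 rose, against 3.66%. The 10 were Psma1, Psma7, Psmb1, Psmb3, Psmb5, Psmb8, Psmb9, Psmb10, Psme1 and Psme2, and the gene that rose was Psma8. No cap gene was called, and the cap median was -0.29 against -0.57 for the 17 core genes. When those abundant genes were scaled and tested alone, 13 of 39 proteasome genes fell and 1 rose, against 15.6% and 9.38% of the 5204.

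**Figure D5:**
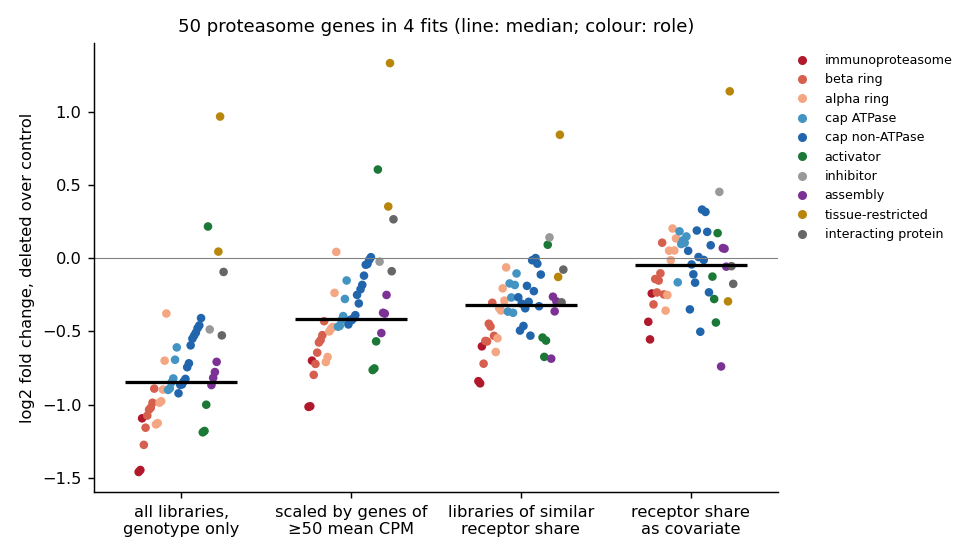
Log2 fold changes of the 50 genes in 4 fits, coloured by role, with the median as a line. The median goes from -0.84 with genotype alone to -0.41, -0.32 and -0.049, and Psmb8 and Psmb9 have the most negative values in all but the fit with the covariate.

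The number of proteasome genes called lower also depended on single libraries. It was 13 without deleted replicate 5 or 7 or without control replicate 5, 14 without control replicate 4 and 15 without deleted replicate 3. It was 38 without control replicate 2. No proteasome gene was called higher by edgeR without deleted replicate 1, 3 or 7 or control replicate 5 or 6. In the authors' deposited table, 22 of the 50 were lower with a mean FDR below 0.05, against 7.47% of all its genes, and all 22 are among the 24 here. That table gave Psmb9 a mean log2 fold change of -1.43.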

How the data were processed

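RNA-seq libraries (SMART-Seq v4, per the labels' protocols) of 6 deleted and 7 control sorted Treg samples were analysed. The authors deposited raw counts per gene and a table of mean log2 fold changes and mean false discovery rates (adjusted p-values). The submitters' processing notes name featureCounts 2.0.1, edgeR 3.28, DESeq2 1.26.0, GRCm38 and mm10, without roles. The strandedness, annotation and aligner were not given in the sources used here.

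Counts were tested with edgeR 4.0.16 in R 4.3.3 (filterByExpr, TMM scaling, quasi-likelihood F test, genotype as the only term), with Benjamini-Hochberg adjustment over 24068 genes and a threshold of 0.05. Standard errors are the log2 fold change divided by the square root of F. Count ratios had 0.5 counts added to each gene and were compared by exact permutation over the 1716 assignments of libraries. Alternatives were DESeq2 1.42.0, limma 3.58.1 (voom with sample weights), other scalings and filters, the receptor share as a covariate, libraries of similar receptor share, a replicate block and each library left out. The receptor share is the percent of counts on 1482 genes named Olfr, Vmn1r or Vmn2r. Total counts per library were 2671660 to 8323919. On simulated counts of 23566 genes for deleted against control, edgeR recovered 28 of 100 genes changed 2-fold and 89 of 100 changed 4-fold, with 5 false calls. The changed genes were drawn at random from genes of all levels, so these rates are not those of the proteasome genes. No difference in receptor share was simulated, so the false calls do not cover one.

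Genes described with their values were the catalytic genes and their immunoproteasome counterparts, Psme1 to Psme3, and per role the genes with the smallest and the largest p. Up to 3 genes of smallest p were named per pathway list. Some genes of these lists are counted but not reported here by name. Members, lists and ratios were chosen with earlier results of these data known. Coordinates are those of GRCm38.p6 in RefSeq, matched by gene ID for all 50 genes.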

Additional observations from a re-analysis of the deposited data

Results flagged for a closer look

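In 50 sets of values (a gene's CPM or a ratio in 1 group), 4 had a library far from the others by Dixon's criterion, where chance gives about 2.5. Psmb10 stood at 182 CPM in deleted replicate 1, against a median of 85.2 CPM in its group. Psme2 stood at 263 CPM in control replicate 5, against a median of 118 CPM. Psme4 stood at 168 CPM in deleted replicate 7, the library with the largest receptor share, against a median of 125 CPM. The log2 ratio of Psmb8 to Psmb5 stood at 4.12 in control replicate 1, against a median of 3.20.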

How the results depend on the processing

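Lower calls among the 50 genes stayed within 1.5 times of 24 with DESeq2 size factors, upper quartile scaling, DESeq2, limma-voom and both other low-count filters. Scaling by genes of at least 50 mean CPM gave 10 lower calls, a median of -0.41 and 699 lower and 882 higher calls over all genes. Those genes tested alone gave 13, -0.45 and 813 lower overall. The receptor share as a covariate gave 0 lower, 0 higher and a median of -0.049 (56 and 54 over all genes), and libraries of similar share gave 0, 0 and -0.32 (101 and 38). Over all genes, where the test called 2050 lower and 400 higher, upper quartile scaling gave 1208 lower and 761 higher, DESeq2 710 higher and limma-voom 1174 higher, with 0 of the 50 higher in limma-voom. Leaving out each library gave 13 to 38 lower, 0 to 1 higher, a median of -0.96 to -0.69, and 1034 to 3245 lower and 167 to 860 higher over all genes. The cause of these shifts was not tested.

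Replicate numbers did not pair the libraries: correlations of same-numbered libraries ran from -0.319 to 0.413 over 6 pairs, and 0 of 6 pairs correlated best with their own number. With the replicate block, 4 genes were lower (Psma1, Psmb5, Psmb9 and Psme3) and 0 higher, with 734 lower and 118 higher over all genes. The Psmb9 to Psmb6 difference was -0.45 with pairs (exact sign-flip p = 0.03125, the smallest that 6 pairs allow) and -0.53 to -0.36 with each library left out. The Psmb8 to Psmb5 difference was -0.33 to -0.13 and the Psmb10 to Psmb7 difference -0.55 to -0.15 with each library left out.

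Directions turned for 21 of the 50 genes with the covariate, for 3 in libraries of similar share and for 3 with scaling by genes of at least 50 mean CPM. Values follow for the genes described in the text alone. With the covariate Psma3 was at 0.13, Psmb11 at -0.29, Psmc4 at 0.10, Psmc6 at 0.15, Psmd7 at 0.33, Mafk at 0.054, Nfyb at 0.17 and Stk4 at 0.49. In libraries of similar share Psmb11 was at -0.13 and Stk4 at 0.062. With scaling by genes of at least 50 mean CPM, or those alone, Psma3 was at 0.043 and Stk4 at 0.024. Stk3 was at 0.37 with that scaling, 0.18 with upper quartile scaling, 0.0094 with limma-voom and 0.0745 with 10 CPM in 6 libraries. With each library left out Psmb11 was at -0.060 to 0.15 and Stk3 at -0.11 to 0.093. In the simulation over genes of all levels, 2-fold changes were often missed. A gene that was not called is not shown to be unchanged.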
